A study of Homo sapiens with 9 samples.

Results

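The mRNAs of 9 genes of MHC class I antigen presentation, *HLA-B*, *HLA-C*, *HLA-E*, *HLA-F*, *B2M*, *TAP1*, *TAP2*, *TAPBP* and *NLRC5*, were examined in prostate cancer cells with and without a deletion in the lncRNA *EPCART*. The genes were found by their symbols among the 19984 gene identifiers of the table, and all 9 passed the filter on low values, a mean normalized count of at least 1. LNCaP cells come from a human prostate cancer and depend on androgen receptor signalling. In del-4 and del-56, each a clone of LNCaP, the promoter and the first exons of *EPCART* had been removed by CRISPR-Cas9, and the WT clone came from the same procedure and carries no such deletion. PolyA RNA was sequenced from 3 cultures of each clone, grown for 48 hours in serum-containing medium without any added interferon named in the labels. Each genotype is therefore represented by 1 or 2 clonal lines, and the 3 cultures of a line measure the spread between cultures of that line. A difference between clones cannot be told apart from a difference that the clones had for another reason than the deletion. The lncRNA itself was not analysed here.

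MHC class I molecules show peptides from the inside of a cell to CD8+ T cells. A polymorphic heavy chain pairs with the light chain beta-2-microglobulin (*B2M*), and the complex receives its peptide in the endoplasmic reticulum. The peptides come from the proteasome and are pumped in by the transporter of *TAP1* and *TAP2*, to which tapasin (*TAPBP*) tethers the empty heavy chain. *NLRC5* is the transactivator of these genes, and interferon induces most of them, in part through IRF1. LNCaP is known for low class I levels at its surface and for a weak response to interferon gamma linked to loss of JAK1.

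Reads counted on genes summed to 91074556 to 118877134 per library, with medians of 112784776 for WT, 112677556 for del-4 and 108969097 for del-56. The lowest sum was that of del-56 replicate 3 (size factor 0.825). These sums are not the sequencing depth, since both mates appear to be counted and a read can count for each of 2 overlapping genes. Values are the normalized counts of the authors, that is reads divided by 1 size factor per library. All 8 markers of luminal prostate cells were detected in each clone, and their summed normalized count ran from 283688 to 315476. Of 6 immune cell markers, 3 were detected at a mean of at least 1, and the 6 together summed to 490.2 to 589 normalized counts per library. The immune sum was 557 to 589 in del-4, 537 to 580 in del-56 and 490.2 to 536 in WT, and nearly all of it was *CD68* (485 to 565), a lysosomal gene that other cells express too. The pan-leukocyte marker *PTPRC* was at 0 in all 6 libraries of the deletion clones and at 1.89 to 3.87 in WT, and *CD3E* was at 0 in all 9. Basal markers summed to 19.4 to 64.3 and stromal and endothelial markers to 1394 to 2048 normalized counts per library.

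The promoters of the members are shown because they carry the elements through which this pathway is usually switched on together. RefSeq windows on GRCh38.p14 were available for 7 of the 9 genes. The 200 bases upstream of the start are printed 5′ to 3′ for 6 of them: *HLA-B* (chr6:31357180-31357379, minus strand), *HLA-C* (chr6:31272093-31272292, minus), *B2M* (chr15:44711317-44711516, plus), *TAP1* (chr6:32853705-32853904, minus), *TAP2* (chr6:32838740-32838939, minus) and *TAPBP* (chr6:33314079-33314278, minus). Capitals mark exact matches, on either strand, to the interferon-stimulated response element core GAAANNGAA, the NF-kB motif GGGNNTTCC, the X2 motif TGACGC and the Y box CCAAT.
HLA-B: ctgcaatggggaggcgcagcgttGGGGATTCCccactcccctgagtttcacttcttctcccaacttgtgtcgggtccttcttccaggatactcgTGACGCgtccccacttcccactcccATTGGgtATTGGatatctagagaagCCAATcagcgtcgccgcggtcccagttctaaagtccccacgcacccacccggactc
HLA-C: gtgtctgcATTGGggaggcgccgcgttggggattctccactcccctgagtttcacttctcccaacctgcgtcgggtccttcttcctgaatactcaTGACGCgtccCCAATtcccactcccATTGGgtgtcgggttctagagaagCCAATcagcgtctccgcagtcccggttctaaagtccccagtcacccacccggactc
B2M: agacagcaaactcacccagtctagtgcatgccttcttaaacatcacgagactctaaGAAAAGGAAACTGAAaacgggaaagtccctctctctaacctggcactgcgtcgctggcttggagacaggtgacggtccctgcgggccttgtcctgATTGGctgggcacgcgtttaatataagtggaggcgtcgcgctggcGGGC
TAP1: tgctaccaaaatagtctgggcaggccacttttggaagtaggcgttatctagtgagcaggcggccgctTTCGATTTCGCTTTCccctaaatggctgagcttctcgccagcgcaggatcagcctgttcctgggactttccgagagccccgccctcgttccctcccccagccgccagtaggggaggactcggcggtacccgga
TAP2: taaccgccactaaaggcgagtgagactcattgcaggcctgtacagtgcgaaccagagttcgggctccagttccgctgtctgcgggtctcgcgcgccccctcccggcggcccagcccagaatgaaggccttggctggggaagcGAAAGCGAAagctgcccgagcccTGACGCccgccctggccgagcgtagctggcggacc
TAPBP: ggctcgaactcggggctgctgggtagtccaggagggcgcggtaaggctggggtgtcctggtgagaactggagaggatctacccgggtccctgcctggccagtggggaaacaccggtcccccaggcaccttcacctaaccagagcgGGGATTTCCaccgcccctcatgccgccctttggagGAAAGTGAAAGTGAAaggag
The interferon core was matched in *B2M*, *TAP1*, *TAP2* and *TAPBP*, in *B2M*, *TAP1* and *TAPBP* as 2 overlapping copies, and in no window of *HLA-B* or *HLA-C*. The X2 motif was matched in *HLA-B*, *HLA-C* and *TAP2*. At the end of the *B2M* line the capitals belong to an NF-kB match that runs on past the start. The 7 genes had 8 windows, as *TAP1* had 2, and its second is not printed. Over the whole windows of 300 bases, 5 of 8 member windows held the interferon core, against 8.11% of 35116 RefSeq promoters. These 5 were the *TAP1* window printed here and those of *B2M*, *TAP2*, *TAPBP* and *HLA-F*, the last not printed. The NF-kB motif was in 3 of 8 against 6.58%, the X2 motif in 3 of 8 against 9.14%, and the Y box in 5 of 8 against 34.6%, while TGACGTCA was in 0 of 8 against 1.85%. These are exact matches of letters and not measured binding. A window without a match can still hold a form of the element with other bases or spacing.

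How reads were assigned limits 2 members. Where a gene lay wholly inside another counted gene, on the opposite strand and with no exon in common, the outer gene held at least the reads of the inner one in all 9 libraries in 164 of 165 pairs. The immunoproteasome gene *PSMB9* spans all of *TAP1* on the opposite strand (positions of GENCODE version 44), and its reads were 101.2 to 102.4% of those of *TAP1* in each library. Only 26 to 74 reads per library were counted on *PSMB9* and not on *TAP1*. The read-through gene ENSG00000250264 likewise overlaps *TAP2* on the same strand and held as many reads in 1 library and up to 100.5% in the others. The values of *TAP1* and *PSMB9* cannot be told apart in this table, nor those of *TAP2* and ENSG00000250264. No other gene of the table overlapped the other 7 members, but lncRNA genes outside it lie on the opposite strand of *HLA-B*, *HLA-F* (*HLA-F-AS1*), *TAPBP* and *NLRC5*, whose reads cannot be told apart from theirs either. Class I heavy chain genes are similar in sequence and polymorphic, so that reads of one can align to another, and their values carry this uncertainty as well.

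*HLA-C* and *HLA-B*, whose products present peptides to T cells and are also read by killer cell receptors, were both higher in del-4 than in WT. *HLA-C* (chromosome 6, 31268749 to 31272130) had 13281, 12515 and 12442 normalized counts in del-4, 11629.9, 10836 and 10890.3 in del-56, and 10009, 9648 and 9539 in WT. The 3 clones did not overlap, and every library of both deletion clones lay above every WT library. The log2 fold change against WT was 0.39 in del-4 (SE 0.038, adjusted p = 2.01e-07 by limma with Benjamini-Hochberg adjustment over all genes) and 0.19 in del-56 (SE 0.040, adjusted p = 0.0012), or 1.31-fold and 1.14-fold. *HLA-B* (31353872 to 31367067) had 2180.1, 1860.5 and 2249 normalized counts in del-4, 1681, 1524 and 1609 in del-56, against 1511, 1596 and 1503 in WT. Here only del-4 stood apart, and del-56 and WT overlapped. *HLA-B* was 1.36-fold higher in del-4 than in WT (log2 fold change 0.44, SE 0.070, limma adjusted p = 5.4e-05), and in del-56 the log2 fold change was 0.06 (95% CI -0.08 to 0.20, adjusted p = 0.49). These 3 calls held when any 1 library was left out.

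**Figure D1:**
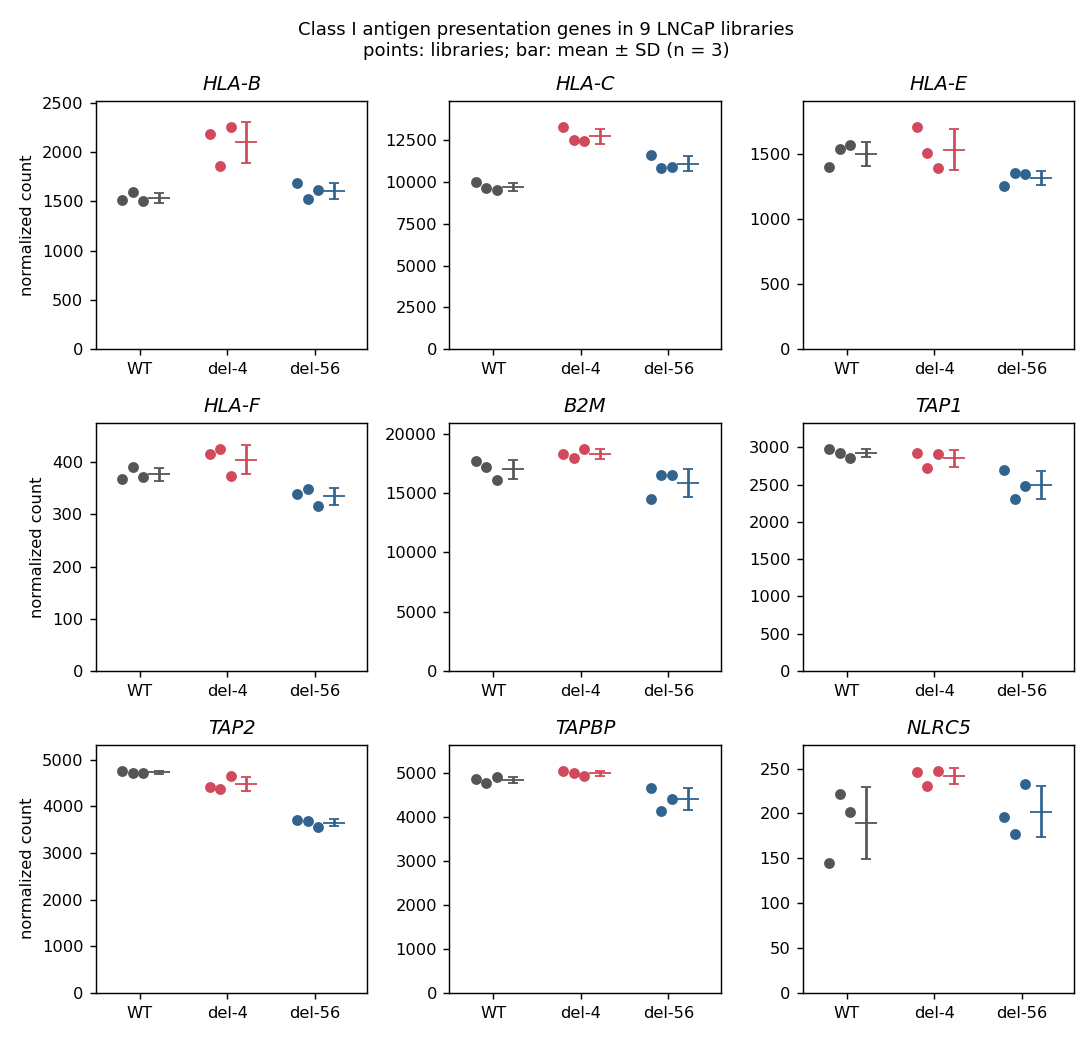
Normalized counts of the 9 members (y axis, from 0) in the 3 libraries of WT, del-4 and del-56 (points), with the mean ± SD of each clone beside them. *HLA-C* is above WT in all 6 libraries of the deletion clones, *HLA-B* is above all WT libraries in all 3 of del-4 but not in all of del-56, and *TAP2* is lowest in del-56.

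Of the non-classical heavy chains, *HLA-E* was called lower in del-56, and *HLA-F* was not called in either clone. *HLA-E*, whose product shows signal peptides of other class I molecules to NKG2A receptors, had 1702, 1502 and 1392 normalized counts in del-4, 1252, 1350.4 and 1341 in del-56, and 1394, 1534 and 1569 in WT. Del-4 overlapped WT (log2 fold change 0.03, SE 0.076, limma adjusted p = 0.80), and all del-56 libraries lay below all WT libraries (-0.19, SE 0.070, adjusted p = 0.043). This call was lost when any of the 3 del-56 libraries, WT replicate 2 or WT replicate 3 was left out, with adjusted p of up to 0.166. It was also lost with no filter on low values, quantile normalization and 1 fit of all 9 libraries (limma adjusted p = 0.0825, 0.0664 and 0.0566). *HLA-F*, which can reach the surface without peptide, had 416, 424 and 373 normalized counts in del-4, 339, 348 and 315 in del-56, and 367, 389.9 and 371 in WT. Its log2 fold changes were 0.10 in del-4 (95% CI -0.15 to 0.35) and -0.17 in del-56 (95% CI -0.43 to 0.09), and the del-56 libraries lay below those of WT.

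The light chain gene *B2M* (chromosome 15, 44711358 to 44718851) was the most abundant member and moved little. It had 18259, 17912 and 18687 normalized counts in del-4, 14505, 16540.2 and 16494 in del-56, and 17675, 17199 and 16134 in WT. The del-4 libraries lay above the WT libraries by a narrow margin, while del-56 and WT overlapped. The log2 fold change was 0.11 in del-4 (SE 0.038, limma adjusted p = 0.035) and -0.10 in del-56 (SE 0.050, adjusted p = 0.12). The del-4 call was lost without del-4 replicate 1 or 3 or WT replicate 2 or 3, with log2 fold changes of 0.11, 0.09, 0.11 and 0.07 and adjusted p of up to 0.202. It was also lost when libraries were scaled to the same total (0.04, adjusted p = 0.447) and with quantile normalization (0.07, adjusted p = 0.107). With no filter on low values and with 1 fit of all 9 libraries it was lost too (limma adjusted p = 0.127 and 0.0851).

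The peptide transporter and its bridge were lower in del-56 and not called in del-4. *TAP2* (chromosome 6, 32821833 to 32838739) had 4404, 4376 and 4653 normalized counts in del-4, 3698, 3691 and 3557 in del-56, and 4753, 4719.7 and 4706 in WT. All del-56 libraries lay well below the other 6, and the del-4 libraries lay just below those of WT. The *TAP2* level in del-56 was 0.772 times that of WT (log2 fold change -0.37, SE 0.043, limma adjusted p = 3.99e-06), and the call held when any 1 library was left out. In del-4 the *TAP2* log2 fold change was -0.08 (adjusted p = 0.149), and with libraries scaled to the same total it was -0.15 (adjusted p = 0.010).

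*TAP1* (32845209 to 32853816), the other subunit of the transporter, had 2923, 2726 and 2905 normalized counts in del-4, 2697, 2311 and 2477 in del-56, and 2974, 2928 and 2860.0 in WT. Del-56 was below WT in all libraries (log2 fold change -0.23, SE 0.059, limma adjusted p = 0.0052), a call that held without any 1 library, and del-4 overlapped WT (-0.04, adjusted p = 0.61). With no filter on low values the del-56 call for *TAP1* was lost (limma adjusted p = 0.0565). *TAPBP* (33299694 to 33314284) had 5030.5, 4993 and 4923 normalized counts in del-4, 4654, 4136 and 4405 in del-56, against 4843, 4758 and 4902 in WT. The *TAPBP* log2 fold change was -0.14 in del-56 (SE 0.048, limma adjusted p = 0.031) and 0.04 in del-4 (adjusted p = 0.42). The del-56 call for *TAPBP* was lost without del-56 replicate 2 or 3 or any 1 of the WT libraries, with log2 fold changes between -0.15 and -0.09 and adjusted p of up to 0.164. No filter on low values and quantile normalization lost it too (limma adjusted p = 0.103 and 0.0631).

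*NLRC5* (chromosome 16, 56989485 to 57083531), the transactivator, was the member with the fewest reads. It had 246, 231 and 247 normalized counts in del-4, 197, 177 and 233 in del-56, against 145, 222 and 202 in WT. Del-4 lay above WT in all libraries, and del-56 overlapped both. The log2 fold change was 0.37 in del-4 (95% CI -0.00069 to 0.74, limma adjusted p = 0.105) and 0.11 in del-56 (95% CI -0.30 to 0.51, adjusted p = 0.71), so neither was called. The WT libraries alone ranged from 145 to 222, and without WT replicate 1 the del-4 log2 fold change was 0.19.

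In counts, 3 of the 9 members rose and 0 fell in del-4, where 20.5% of all 17401 genes tested were called higher and 20.2% lower. In del-56, 1 member rose and 4 fell, where 19.2% of 17481 genes were called higher and 20.5% lower. No member passed the stricter rule of an adjusted p under 0.05 with a log2 fold change above 1 or below -1, which 4.83% of genes passed in del-4 and 4.87% passed in del-56. The members' median log2 fold change was 0.10 for del-4 and -0.14 for del-56, beside -0.0028 and -0.0011 for all genes. Both comparisons use the same 3 WT libraries.

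Compared directly, del-4 had the higher log2 value for all 9 members, and 6 of the differences were called, where 10.9% of 17447 genes were called higher in del-4 and 9% lower. The members' median difference was 0.22, beside -0.0026 for all genes, and 0 members passed the stricter rule that 2.93% of genes passed. *HLA-B* differed by 0.38 (SE 0.073, limma adjusted p = 0.0010) and *TAP2* by 0.30 (SE 0.046, adjusted p = 1.44e-04) on the log2 scale. *B2M* differed by 0.21, *HLA-C* by 0.20, *TAP1* by 0.19 and *TAPBP* by 0.18, with adjusted p of 0.0032, 0.0020, 0.030 and 0.012. The *TAP1* call was lost without del-4 replicate 1 or 3 or del-56 replicate 2 or 3, with values of 0.14 to 0.19 and adjusted p of up to 0.156. It was also lost with no filter on low values, scaling to the same total and quantile normalization (limma adjusted p = 0.164, 0.0777 and 0.0523). The *TAPBP* call was lost without del-4 replicate 1 (0.17) or del-56 replicate 2 (0.14), with adjusted p of up to 0.0774. *HLA-E* (0.22, adjusted p = 0.058), *HLA-F* (0.27, adjusted p = 0.14) and *NLRC5* (0.26, adjusted p = 0.29) were not called, and *HLA-E* was called without del-4 replicate 3 (0.28, adjusted p = 0.036).

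**Figure D2:**
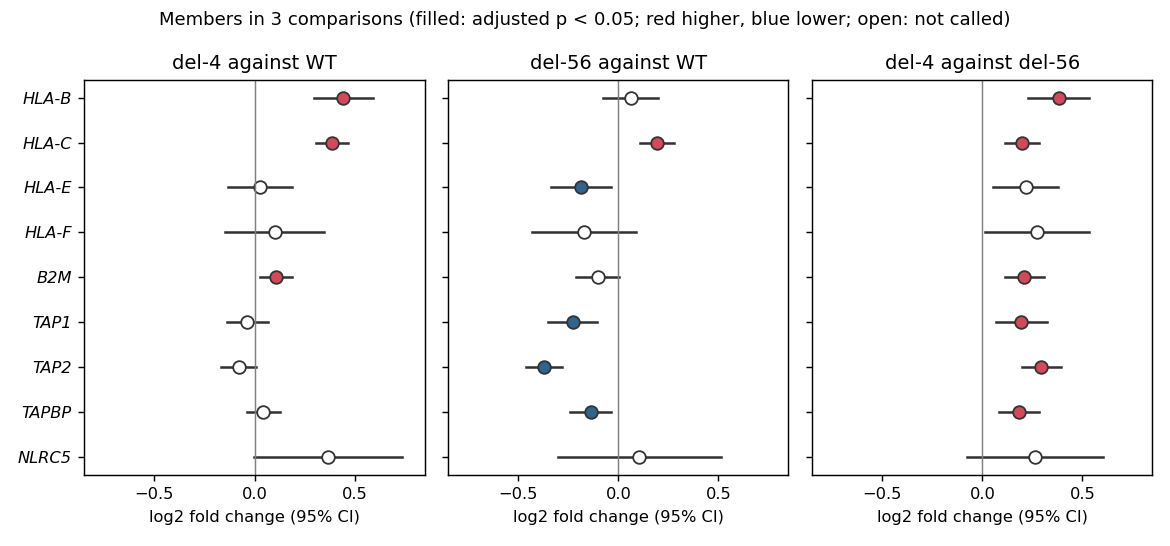
Log2 fold changes of the 9 members (x axis) with their 95% confidence intervals in the 3 comparisons, filled where the limma adjusted p is under 0.05. In del-4 the filled points are *HLA-B*, *HLA-C* and *B2M*, all higher, in del-56 *HLA-C* is higher and *HLA-E*, *TAP1*, *TAP2* and *TAPBP* are lower, and in the direct comparison all 9 points lie above 0.

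Ratios of 2 members within a library do not depend on how libraries are scaled. Reads on *HLA-C* per read on *B2M* were 0.697 ± 0.031 in del-4, 0.706 ± 0.083 in del-56, against 0.573 ± 0.016 in WT (SD, n = 3). The highest WT library had 0.591 and the lowest library of the deletion clones 0.655. *TAP2* per *HLA-C* was 0.352 ± 0.021 in del-4, 0.328 ± 0.011 in del-56, against 0.486 ± 0.010 in WT, and *TAP1* per *HLA-C* was 0.224, 0.224 and 0.300. *TAPBP* per *HLA-C* was 0.391, 0.395 and 0.497, and *HLA-E* per *HLA-C* 0.120, 0.118 and 0.154. Relative to *HLA-C*, then, these 4 genes had lower reads in all 6 libraries of the deletion clones than in all WT libraries. The 4 ratios share *HLA-C*, which was itself called higher in both deletion clones, so they are not 4 separate results. Against WT, none of the 4 genes was called in del-4. Their log2 fold changes there were 0.03 (*HLA-E*), -0.04 (*TAP1*), -0.08 (*TAP2*) and 0.04 (*TAPBP*). *HLA-B* per *HLA-C* overlapped between del-4 (0.165) and WT (0.158) and was lower in del-56 (0.144). *TAP2* per *TAP1* was 1.57 in del-4, 1.47 in del-56, against 1.62 in WT. With 3 libraries against 3, the exact two-sided permutation test cannot go below p = 0.10, which was reached wherever the groups did not overlap, and over the 21 ratio comparisons the adjusted value was then 0.162.

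**Figure D3:**
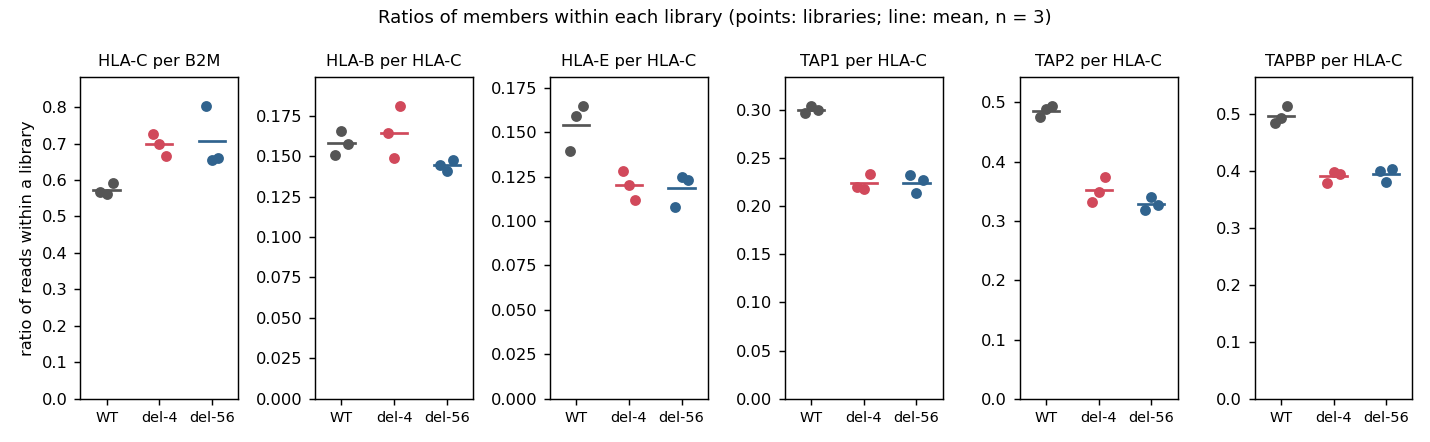
Ratios of reads between 2 members within each library (y axis, from 0) for WT, del-4 and del-56, with points for libraries and a line for the mean of 3. The ratio of *HLA-C* to *B2M* is higher, and the ratios of *HLA-E*, *TAP1*, *TAP2* and *TAPBP* to *HLA-C* are lower, in all libraries of the deletion clones than in all WT libraries.

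Levels per length were compared as normalized counts per kilobase of exon, which is approximate. The annotation of the counting was an earlier version, reads appear to have been counted over whole gene spans and not exons alone, and the *TAP1* and *TAP2* levels can include reads of the genes that overlap them. In each clone the order began with *B2M*, *HLA-C*, *TAPBP*, *TAP1* and *TAP2* and ended with *HLA-F* and *NLRC5*. *B2M* had 11287 ± 239.6 normalized counts per kilobase in del-4, 9782 ± 717 in del-56, against 10496 ± 487 in WT (SD, n = 3). *HLA-C* had 8170.4 ± 298, 7127 ± 284 and 6238 ± 158 normalized counts per kilobase, and *HLA-B* 668 ± 66.0, 511 ± 25.05 and 489.6 ± 16.5. *HLA-C* thus exceeded *HLA-B* in every library of each clone. *NLRC5* was lowest, at 32.9 ± 1.217, 27.6 ± 3.88 and 25.9 ± 5.45 normalized counts per kilobase. Neighbours in the order did not overlap except around *HLA-B*. In del-4 it overlapped *TAP2* above it and *HLA-E* below it, and in del-56 it overlapped *HLA-E*, whereas in WT *HLA-E* (588 ± 36.1) lay above *HLA-B* in all libraries.

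All members but *B2M* and *NLRC5* lie in the MHC on chromosome 6, in the 3.58 Mb from *HLA-F* to *TAPBP*. In this interval the other genes had a median of 0.06 on the log2 scale for del-4, with 33 of 129 called higher and 8 lower, and 0.05 in del-56, with 23 of 128 higher and 15 lower. For chromosome 6 without the members the medians were -0.02 and 0.03. *HLA-C* in both clones and *HLA-B* in del-4 lay above these medians, and *TAP1* and *TAP2* in del-56 lay below them. *B2M* lies on chromosome 15, where the median was 0.03 for del-4 and 0.01 for del-56. Genes on chromosome 16, which holds *NLRC5*, had medians of -0.34 for del-4 and -0.31 for del-56, with 551 of 789 and 514 of 790 called lower. The *NLRC5* values of 0.37 and 0.11, neither of them called, stood on the other side of 0 from most of its chromosome. The sign in del-56 was not stable, as the value ran from -0.08 to 0.23 when 1 library was left out. In del-4 it ran from 0.19 to 0.49.

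**Figure D4:**
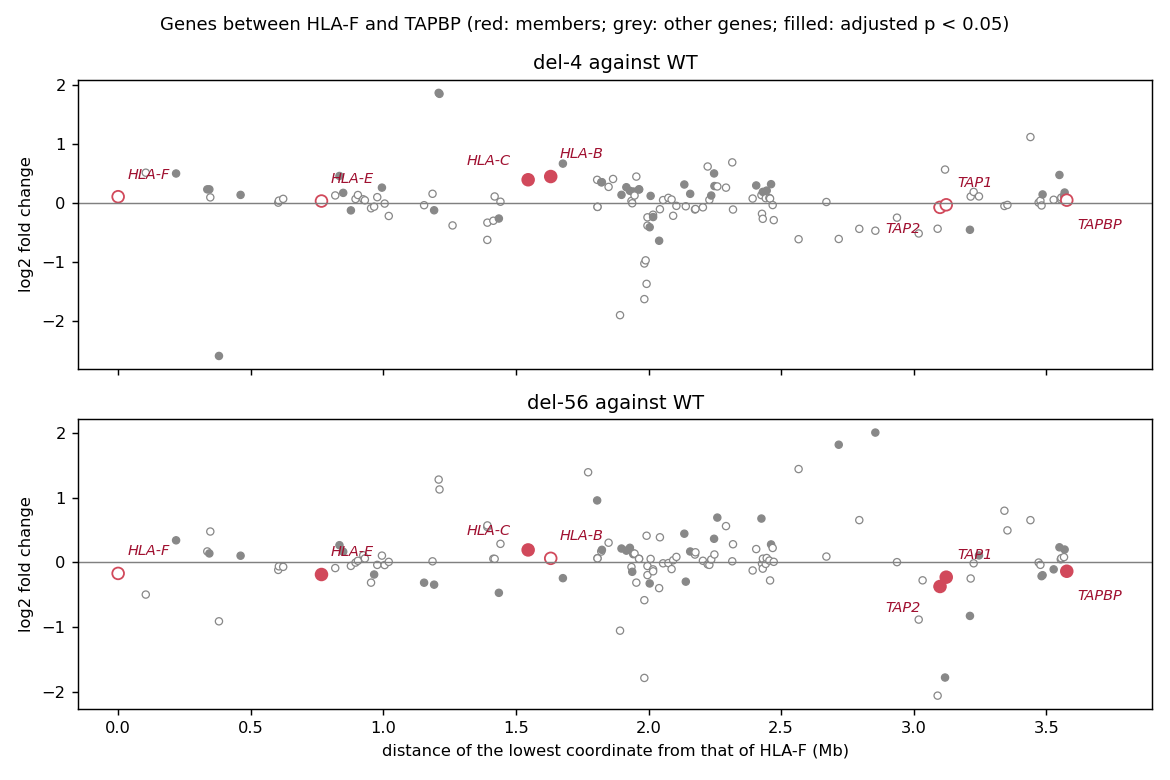
Log2 fold change against WT (y axis) of genes from *HLA-F* to *TAPBP* by distance in Mb (x axis), in del-4 (top) and del-56 (bottom), with members in red and other genes in grey, filled where the limma adjusted p is under 0.05. *HLA-C* and *HLA-B* lie next to each other and are filled above 0 in del-4, while *TAP1*, *TAP2* and *TAPBP* are filled below 0 in del-56.

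The remaining genes of the pathway were described by a list of 91 genes in 9 groups. In del-4, 88 were tested, 19 rose and 16 fell. In del-56, 89 were tested, 17 rose and 30 fell, and directly 20 were higher and 7 lower in the first clone than in the second. These are 21.6% and 18.2% of the genes tested in del-4 (20.5% and 20.2% of all genes), 19.1% and 33.7% in del-56 (19.2% and 20.5%), and 22.5% and 7.87% between the clones (10.9% and 9%). The del-4 shares are close to those of all genes, and the same shares of all genes apply to each group that follows. The stricter rule was passed by 3, 8 and 4 of them. The list's median log2 fold change was -0.03 in del-4, -0.06 in del-56, and for the direct comparison it was 0.07.

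Among the genes that make and trim peptides, the 5 of the immunoproteasome and its PA28 activator were all called higher in del-4 than in del-56, where 10.9% of all genes were. One of them, *PSMB9*, holds the reads of *TAP1*. The calls between the clones were lost without del-4 replicate 1 or 3 or del-56 replicate 2 or 3 for *PSMB9* (adjusted p of up to 0.135), and without any library but del-56 replicate 3 for *PSMB10* (up to 0.203). Against WT, 2 rose and 1 fell in del-4, and 0 rose and 3 fell in del-56. *PSMB8*, a catalytic subunit induced by interferon, was low, with 38.4, 23.9 and 40.2 normalized counts in del-4, 4.77, 4.02 and 9.70 in del-56, against 15.5, 29.0 and 24.5 in WT. The *PSMB8* log2 fold change was -1.78 in del-56 (limma adjusted p = 0.015, and up to 0.0783 without WT replicate 2 or 3) and 0.56 in del-4 (adjusted p = 0.29). *PSMB8* overlaps *PSMB9* on the opposite strand by 544 bases, and with so few reads on *PSMB8* these cannot be told apart from reads of *PSMB9*. *PSMB10* shared its reads with ENSG00000261884 (102 to 107%), so the changes of these subunits cannot be told apart from those of the genes they overlap. *PSME1*, a subunit of PA28, had 9774, 9285 and 9986 normalized counts in del-4 against 7591, 7549 and 7495 in WT (log2 fold change 0.36, adjusted p = 5.28e-07), and 7432, 7661 and 7786 in del-56 (0.02, adjusted p = 0.79). Of the 3 standard catalytic subunits, 1 rose in del-4, *PSMB5* by 0.10 (adjusted p = 0.046, lost without del-4 replicate 1 or 3 or WT replicate 2 or 3, up to 0.185), and 0 changed in del-56.

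Of 8 genes for loading and folding in the endoplasmic reticulum, 2 rose and 2 fell in del-4 (25% each), near the shares of all genes, and 2 rose and 3 fell in del-56. *TAPBPL*, which encodes the tapasin-related editor TAPBPR, was lower in both clones, with 328 ± 16.1 normalized counts in del-4, 299.8 ± 36.8 in del-56, against 584 ± 59.7 in WT (log2 fold changes -0.82 and -0.96, limma adjusted p = 1.7e-05 and 2.3e-05). *TAPBPL* overlaps *VAMP1* on the opposite strand, which held 40.4 to 65.6% as many reads. *UGGT1*, the folding sensor that returns immature class I to calreticulin, fell by 0.26 in del-4 and 0.20 in del-56 on the log2 scale. The chaperone calnexin (*CANX*) rose by 0.28 in del-4 (adjusted p = 4.7e-05) and by 0.12 in del-56 (adjusted p = 0.036, lost without del-56 replicate 2 or 3 or WT replicate 2 or 3, up to 0.156). Calreticulin (*CALR*) fell in del-56 alone (-0.23, adjusted p = 0.0011), with -0.04 in del-4 (adjusted p = 0.50), and *ERAP1*, the peptide-trimming aminopeptidase, changed by 0.11 in del-4 (adjusted p = 0.039), with 0.03 in del-56 (adjusted p = 0.69). The *ERAP1* call in del-4 was lost when any library but WT replicate 1 was left out (up to 0.115). *ERAP1* also overlaps *CAST* on the opposite strand, which held 175.7 to 196.5% as many reads. *PDIA3*, which acts with tapasin, had 0.09 in del-4 (adjusted p = 0.088, called without WT replicate 1) and 0.13 in del-56 (adjusted p = 0.025, lost without del-56 replicate 2 or 3 or WT replicate 2 or 3, up to 0.143).

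**Figure D5:**
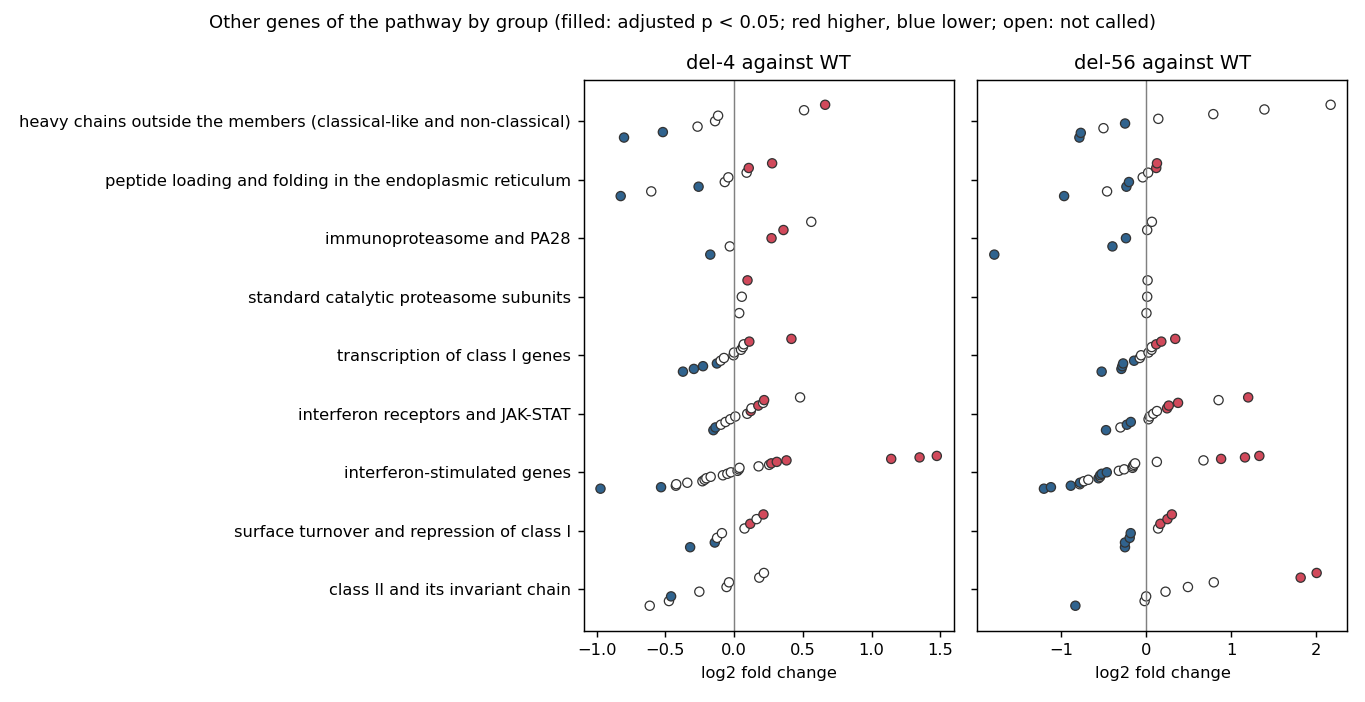
Log2 fold change against WT (x axis, separate scales) of the other genes of the pathway by group (y axis), in del-4 (left) and del-56 (right), with 1 point per gene tested, filled red where called higher and blue where called lower at a limma adjusted p under 0.05. The interferon-stimulated genes hold 6 red and 2 blue points in del-4 and 3 red and 8 blue in del-56.

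Of the factors that transcribe class I genes, 13 were tested. In del-4, 2 rose (15.4%) and 4 fell (30.8%), and in del-56, 3 rose (23.1%) and 5 fell (38.5%), beside 19.2 to 20.5% of all genes in each direction. *IRF1*, the interferon-induced activator, had 298 ± 1.73 normalized counts in del-4, 269 ± 4.35 in del-56, against 386 ± 8.18 in WT (log2 fold changes -0.37 and -0.52, limma adjusted p = 0.020 and 0.0034). The del-4 call for *IRF1* was lost without WT replicate 2 or 3 (up to 0.0573), and the gene overlaps ENSG00000283782, a gene on the opposite strand with 1267 to 1844% as many reads. *IRF2*, which occupies the same elements, rose by 0.42 in del-4 and 0.34 in del-56 (adjusted p = 8.4e-05 and 6.6e-04). *RFX5*, a subunit of the complex on the X motif, rose by 0.11 and 0.12 (adjusted p = 0.019 and 0.015), calls that were lost without del-4 replicate 1 or 3 or WT replicate 3 and without del-56 replicate 3 or WT replicate 3 (up to 0.0694 and 0.0773). *CIITA*, the class II transactivator, was called lower in both clones (both -0.29), but *DEXI*, which lies inside it on the opposite strand, held 99.1 to 99.7% as many reads in each library, so the 2 genes cannot be told apart.

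Of 13 genes of the interferon receptors and the JAK-STAT pathway, 3 rose and 2 fell in del-4, and 4 rose and 3 fell in del-56. *JAK1* was low in each clone, with 212 ± 32.8 normalized counts in del-4, 188 ± 9.33 in del-56, against 185 ± 40.7 in WT, and was not called (log2 fold changes 0.21 and 0.04, adjusted p = 0.41 and 0.88). *JAK2* had 1987 ± 101.2, 1462 ± 36.4 and 2024 ± 52.5 normalized counts, and was called lower in del-56 only (-0.47, adjusted p = 1.1e-05). On the opposite strand *JAK2* overlaps *INSL6*, which held 24.9 to 33.7% as many reads. *IFNGR1*, a chain of the interferon gamma receptor, rose in del-56 (0.38, adjusted p = 1.3e-04) and had 0.13 in del-4 (adjusted p = 0.077). The feedback inhibitor *SOCS3* had 18.3 ± 7.44 normalized counts in del-4, 43.5 ± 5.19 in del-56, against 18.5 ± 4.18 in WT (1.20 in del-56, adjusted p = 0.016, and up to 0.0565 without del-56 replicate 3 or WT replicate 3).

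Interferon-stimulated genes outside the class I genes moved in both directions. Of 23, 6 rose and 2 fell in del-4 and 3 rose and 8 fell in del-56, with medians of -0.02 and -0.46. The 26.1% called higher in del-4 is near the 20.5% of all genes, and 34.8% were called lower in del-56, beside 20.5%. Between the clones 10 (43.5%, beside 10.9% of all genes) were higher and 1 (4.35%, beside 9%) lower in del-4, with a median difference of 0.42. *UBE2L6*, the conjugating enzyme of ISG15, had 1099, 1098 and 905 normalized counts in del-4, 807, 859 and 825 in del-56, and 398, 398 and 319.6 in WT. It was 2.78-fold and 2.24-fold higher than WT (log2 fold changes 1.47 and 1.16, limma adjusted p = 9.7e-09 and 5.8e-07). *IFI44L* (1.35 and 0.88) and *BST2* (1.14 and 1.33), which encodes tetherin, were called higher in both clones at low levels, with WT means of 45.9 and 41.0 normalized counts. The *BST2* call in del-4 was lost without WT replicate 2 or 3 (adjusted p of up to 0.0517).

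For each member, the gene with the most similar profile over the 9 libraries was found by Pearson correlation of log2 values among 15364 genes, as a description. For *TAP1* and *TAP2* these were the genes that share their reads, *PSMB9* (r = 0.999) and ENSG00000250264 (r = 0.9999). For *HLA-C* it was *RPL28* (r = 0.989), for *HLA-B* *DNAJC4* (0.988), for *B2M* *BUD31* (0.981), for *TAPBP* *PIGV* (0.969), for *HLA-F* *RSAD1* (0.961), for *HLA-E* *MINDY2* (0.957) and for *NLRC5* *MARCHF3* (0.949). Among the 36 pairs of members r ran from -0.18 to 0.90 with a median of 0.50, and 33 were above 0. These 9 points are 3 clones with 3 libraries each, and they share the size factors.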

How the data were processed

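The authors trimmed strand-specific, paired-end 150 bp reads with Trim Galore 0.6.5, aligned them to GRCh38 with STAR 2.71a, used SAMtools 1.8 and counted reads on protein-coding transcripts of GENCODE version 38 with bedtools 2.27.1. FastQC 0.11.8 is named for quality control. Whether counting used strand is not given in the sources used here. The deposited signal values are normalized counts, reads divided by 1 DESeq2 size factor per library. Whole reads were recovered from all 9 columns (100.0% of values within 1e-06 of a whole number). Both mates appear to be counted, since 83.8% of values of 1 to 20 reads were even. Identifiers were matched to GENCODE version 44 for symbols and positions (19905 of 19984). Libraries were grouped by clone, and 3 libraries differed within each clone by more than sampling noise.

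Limma 3.58.1 in R 4.3.3 was fitted on log2(normalized count + 1) with a variance trend to the 6 libraries compared, keeping genes whose mean reached 1, so fold changes are on that scale and understate those of low genes. Called means a Benjamini-Hochberg adjusted p under 0.05. The libraries of a clone are cultures, and p-values measure the spread between them. Members are always named. From the pathway groups, 9 genes are always named, of which 1 is not reported here, and otherwise up to 3 per group with the largest mean change of the clones if the mean reached 10 and 1 clone or more was called. Members, lists and alternatives were chosen with earlier results of these data known, and ratios and shared reads were added after the values were seen. Alternatives covered the pseudocount, filter, scaling, a fit of all 9 libraries, the replicate block, edgeR 4.0.16, DESeq2 1.42.0 and leaving out each library. The fits were tested on simulated data. Python 3.11.15 was used for the rest.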

Additional observations from a re-analysis of the deposited data

Results flagged for a closer look

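For 19 of the 41 named genes, the change against WT differed between del-4 and del-56 by limma's test of the clones against each other (adjusted p under 0.05). Of all genes, 10.9% were called higher in del-4 and 9% lower. The 2 cannot be compared, since part of the 41 genes were picked for calls and changes against WT in these same libraries. Given as the log2 value in del-4 minus that in del-56, the members among the 19 were *HLA-B* (0.38), *TAP2* (0.30), *B2M* (0.21), *HLA-C* (0.20), *TAP1* (0.19) and *TAPBP* (0.18). The immunoproteasome and PA28 genes were *PSMB8* (2.34), *PSME1* (0.34), *PSMB10* (0.22) and *PSMB9* (0.20), the last with the reads of *TAP1*. The chaperones calreticulin (*CALR*) and calnexin (*CANX*) differed by 0.19 and 0.16, and *UBE2L6* by 0.31. Of the signalling genes, *JAK2* was higher in del-4 by 0.44, and *IFNGR1* (-0.25) and *SOCS3* (-1.26) were higher in del-56. *MICA*, a stress ligand of the NKG2D receptor, differed by 0.91. The class II genes *HLA-DRB1* (-2.48) and *HLA-DRA* (-2.43) were higher in del-56. The calls for *TAP1*, *TAPBP*, *PSMB9*, *CANX*, *PSMB10*, *SOCS3* and *UBE2L6* were lost when at least 1 library was left out, with adjusted p of up to 0.156, 0.0774, 0.135, 0.0909, 0.203, 0.103 and 0.111. None of these 19 differences changed sign under any alternative.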

How the results depend on the processing

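Of 432 values of the members under the alternatives, 387 kept their side of the threshold, 39 lost a call, 6 gained one and no called value reversed. For the other named genes 1423 of 1536 were kept, 105 lost a call and 8 gained one. Values that were not called changed sign 6 times among the members (*HLA-E* in del-4, *NLRC5* in del-56, *TAPBP* in del-4) and 18 times among the others. The 5 members called in del-56 became 2 with no filter on low values, 3 with quantile normalization and 3 with the replicate number as a block, and 3 to 4 when 1 library was left out. The 6 members called between the deletion clones became 1 with no filter, where the 27 pathway genes became 16, and 4 to 6 members were called without 1 library. The 3 members called in del-4 became 2 to 3 without 1 library. Of these, *B2M* also lost its call with no filter, scaling to the same total, quantile normalization and 1 fit of all 9 libraries. The pathway counts without 1 library were 25 to 36 in del-4 (35 with all), 40 to 48 in del-56 (47) and 20 to 25 between them. The cause was not tested, other than that no filter brings 19984 genes into the fit.

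Libraries with the same number shared little deviation (r of -0.053 to 0.063), although 6 of 9 correlated best with their own number. These 6 were all the libraries of del-4 against WT and of del-4 against del-56, and none were of del-56 against WT. Numbers were not taken as pairs in the main fit, and the replicate block was an alternative. With the replicate block, *HLA-E* and *TAPBP* were no longer called in del-56 (adjusted p = 0.0551 and 0.0525), and 3, 3 and 6 members were called in the 3 comparisons. Scaling to the same total moved the median of all genes to -0.072 in del-4, -0.029 in del-56 and -0.043 between them. The calls then were 2364 higher and 4932 lower in del-4 (3565 and 3517 with the authors' size factors), 2751 and 4005 in del-56 (3358 and 3580) and 1378 and 2381 between them (1898 and 1571). *HLA-E* differed between the deletion clones by edgeR (adjusted p = 0.0427) and DESeq2 (0.0479). *NLRC5* was called higher in del-4 with quantile normalization (0.46, adjusted p = 0.044), and *B2M* lower in del-56 with scaling to the same total (-0.13, adjusted p = 0.041). The intervals of *NLRC5* in both clones hold the changes of *HLA-C*.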

Other observations

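Of 8 heavy chain relatives outside the members, 7 were tested in del-4, where 1 was called higher and 2 lower, and 8 in del-56, where 0 were called higher and 3 lower. *MR1*, which presents vitamin metabolites to MAIT cells, had 665 ± 51.0 normalized counts in del-4, 674 ± 54.7 in del-56, against 1156 ± 32.6 in WT (SD, n = 3), with log2 fold changes of -0.80 and -0.78 (limma adjusted p = 4.6e-07 and 2.4e-06). *HFE*, a regulator of iron uptake that pairs with beta-2-microglobulin, had 392, 337 and 563 normalized counts (-0.52 and -0.77), and it overlaps the histone gene *H2BC4* on the opposite strand. *MICA* had 1260.0, 1170.3 and 1391 normalized counts in del-4, 714, 685 and 635 in del-56, against 792, 863 and 756 in WT, so it was 1.58-fold higher than WT in del-4 (adjusted p = 4.8e-06). In del-56 the *MICA* log2 fold change was -0.24 (adjusted p = 0.045, lost without del-56 replicate 2 or 3 or WT replicate 1 or 2, up to 0.176).

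Of 8 class II genes tested, 0 were called higher and 1 lower in del-4, and 2 higher and 1 lower in del-56. *HLA-DRA* and *HLA-DRB1* had few reads in WT. *HLA-DRA* had 51.5, 44.2 and 36.4 normalized counts in del-56 against 9.66, 7.72 and 20.7 in WT and 7.68, 11.9 and 4.02 in del-4, and *HLA-DRB1* had 96.4, 79.3 and 80.03 against 29.96, 21.2 and 13.2 in WT. Their log2 fold changes in del-56 were 1.82 and 2.01 (limma adjusted p = 0.0036 and 2.4e-04), and in del-4 -0.61 and -0.47 (adjusted p = 0.46 and 0.50). *HLA-DMB*, the class II peptide editor, was lower in both clones (-0.46 and -0.83, adjusted p = 0.021 and 0.0014), and the del-4 call was lost without del-4 replicate 2 or 3 or WT replicate 1 or 2 (up to 0.126). It overlaps ENSG00000248993 on the same strand, which held 160 to 325% as many reads and was not called in either clone (0.10 and -0.25). The leukocyte marker *PTPRC* was at 0 in all 3 libraries of del-56. Of the genes for surface turnover and repression of class I, 8 were tested, of which 2 rose and 2 fell in del-4 and 3 rose and 4 fell in del-56, beside 19.2 to 20.5% of all genes in each direction. *SPPL3*, which encodes a protease, rose by 0.21 and 0.31, and *WWP2* fell by 0.32 and 0.25. *WWP2* lies on chromosome 16, where the medians of all genes but the members were -0.34 and -0.31. *MARCHF9*, a ligase that removes class I from the surface and that overlaps *CDK4* on the opposite strand, had 0.16 (adjusted p = 0.064, called without WT replicate 1) and 0.25 (adjusted p = 0.017, lost without del-56 replicate 1 or 3 or WT replicate 2, up to 0.0936).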
